A study of Homo sapiens with 6 samples.

Results

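Heme, the iron-carrying ring of hemoglobin, cytochromes and many other enzymes, is built from glycine and succinyl-CoA by a chain of enzymes that begins and ends in mitochondria. Erythroid cells make most of it, and in them the first and rate-limiting step is run by the erythroid isozyme ALAS2, while other tissues use the ubiquitous ALAS1. The enzymes ALAS1 and ALAS2 (the first step), ALAD (the second), UROS (the fourth), UROD (the fifth), CPOX (the sixth), PPOX (the seventh) and FECH, which inserts the iron at the end, were examined here together with HMOX1, the inducible oxygenase that opens the heme ring. Members were every probe set, a group of array probes read as 1 value, whose platform annotation gives 1 gene symbol among these 9 genes. This rule gave 19 of the 54613 probe sets tested and 9 of 19775 genes: 1 probe set each for ALAS1, CPOX and HMOX1, 2 each for ALAS2 and ALAD, and 3 each for UROS, UROD, PPOX and FECH. The enzyme of the third step was not analysed here.

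K562 is a human erythroleukemia cell line from chronic myeloid leukemia with erythroid and megakaryocytic potential. Stably transfected K562 clones carrying ERG3, an isoform of the ETS transcription factor ERG, under a doxycycline (DOX) promoter (pTRE) were profiled on 6 U133 Plus arrays (Affymetrix). The arrays labelled dox (ERG-induced) held RNA of the 3 clones CL4, CL9 and CL46 after 8 days of daily 1 µg/ml DOX, and the arrays labelled no dox (non-induced) held the same 3 clones without it. Values by clone are given below in the order CL4, CL9 and CL46. Each clone was thus represented by 1 array a group, all cultures carried the construct, and DOX was given only with induction, so effects of ERG and of DOX cannot be told apart. A figure legend of the study gives another duration.

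The deposited values are linear ratios of each probe set to its median over the 6 arrays, taken here to log2. They hold no brightness, so no level can be compared between genes, signal over background is unknown, and the erythroid markers of K562 cannot be checked as levels. Differences are dox minus no dox, with the standard error (SE) of limma's fit over 3 arrays against 3, and the number of arrays limits the precision. ERG itself, over 4 probe sets, was lower with dox in each clone, by 1.35, 0.80 and 0.14, a difference of -0.76 (SE 0.63, limma adjusted p = 0.671). Whether these probe sets read the introduced sequence is not known, and the labels remain unchecked by them. The array controls that read small-subunit ribosomal RNA stood 1.21, 0.59 and 0.82 higher with dox. The 3′ minus 5′ difference of the actin control changed by -0.15, 0.59 and 0.24 with dox, and that of GAPDH by 0.01, 0.06 and -0.01. The part of these controls in the results below was not tested.

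The sequences before the start sites of ALAS2, ALAS1 and CPOX are shown because ALAS2 and ALAS1 catalyse the same reaction and are compared below, and because CPOX was the gene whose dox arrays all lay above its no dox arrays. Each is the 250 bases before the RefSeq start site in GRCh38.p14, read 5′ to 3′ on the strand of the gene. ALAS2 lies at chrX:55030978-55031227 on the minus strand, ALAS1 at chr3:52197833-52198082 on the plus strand and CPOX at chr3:98593612-98593861 on the minus strand. Capitals mark the letters AGATAA or TGATAA, bound by GATA factors such as GATA1, and AGGAAG or CGGAAG, which hold the core bound by ETS factors such as ERG, on either strand.
ALAS2: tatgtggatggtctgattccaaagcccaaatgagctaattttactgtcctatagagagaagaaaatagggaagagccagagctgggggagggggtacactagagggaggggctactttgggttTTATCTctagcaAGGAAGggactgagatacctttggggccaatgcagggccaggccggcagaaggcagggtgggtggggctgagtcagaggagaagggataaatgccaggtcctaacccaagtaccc
ALAS1: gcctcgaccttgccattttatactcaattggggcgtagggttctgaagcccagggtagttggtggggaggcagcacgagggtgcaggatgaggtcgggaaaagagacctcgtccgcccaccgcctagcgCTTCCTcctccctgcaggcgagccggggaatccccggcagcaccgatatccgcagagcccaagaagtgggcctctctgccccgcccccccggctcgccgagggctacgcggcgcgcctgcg
CPOX: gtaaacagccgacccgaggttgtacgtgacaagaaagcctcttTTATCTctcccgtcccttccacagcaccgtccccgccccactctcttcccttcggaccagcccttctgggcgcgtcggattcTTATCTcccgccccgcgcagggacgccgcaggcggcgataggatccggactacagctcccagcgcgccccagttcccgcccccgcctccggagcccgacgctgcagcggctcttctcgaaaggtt
In ALAS2 the GATA letters stood in reverse at 127 bases before the start and the ETS letters at 115, while ALAS1 had only the ETS letters, in reverse at 121, and CPOX only the GATA letters, in reverse at 207 and 125. RefSeq start sites were found for 7 of the 9 genes, with 9 windows. GATA letters were in 3 of these windows, those of ALAS2, CPOX and the second start of PPOX, against 14.6% of all 35116 promoter windows of this length. ETS letters were in 4, those of ALAS1, ALAS2 and both starts of ALAD, against 40.8%. The 2 windows of ALAD overlap and hold the same match, which stands 26 and 190 bases before the respective starts, so it is counted in both. A match is a run of letters and not a measured binding site.

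ALAS2 held the only member probe set that was called, and it fell with dox. Its probe set 211560_s_at had log2 ratios of -0.53, -0.62 and -0.64 in the dox arrays and of 0.64, 0.67 and 0.39 in the no dox arrays. All 3 dox values thus lay below all 3 no dox values, and the clones were close to each other within each group. The fall was 2.24-fold (log2 difference -1.17, SE 0.25, unadjusted p = 0.00429, limma adjusted p = 0.195), and the clones gave -1.17, -1.29 and -1.03. Its call, a fold of 2 or more with an unadjusted p under 0.05 as the study's thresholds are stated, was kept without CL4 (-1.16), CL9 (-1.10) or CL46 (-1.23). In a culture measured in bulk, fewer cells that make a transcript and less of it per cell cannot be told apart.
The second probe set of ALAS2, 244205_at, had log2 ratios of -0.03, -1.06 and 0.03 in the dox arrays and 0.86, -0.04 and 0.21 in the no dox arrays. It was lower in each clone, by 0.90, 1.02 and 0.18, but the groups overlapped, since the no dox array of CL9 lay below the dox arrays of CL4 and CL46. Its difference of -0.70 (SE 0.44, adjusted p = 0.579) was not called. Over the 6 arrays the 2 probe sets correlated at r = 0.63, given as a description. Averaged over both, ALAS2 differed by -0.93 (SE 0.29, unadjusted p = 0.0189, limma adjusted p = 0.301), 1.91-fold lower with groups that did not overlap, and so missed the fold threshold. Of all genes tested, 13.9% ranked lower than ALAS2.

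The other isozyme of the same step, ALAS1, showed no such difference. Its log2 ratios were -0.26, 0.21 and 0.08 in the dox arrays and -0.26, -0.09 and 0.11 in the no dox arrays, and the values of the 2 groups were interleaved. The difference was 0.09 (SE 0.26, limma adjusted p = 0.926) with a 95% interval of -0.55 to 0.73, which does not reach 2-fold in either direction. The test of the isozymes against each other compared ALAS2 minus ALAS1 within each array. This quantity was -0.02, -1.05 and -0.39 in the dox arrays and 1.01, 0.40 and 0.19 in the no dox arrays, again without overlap. The clones gave -1.03, -1.45 and -0.58 (mean -1.02, SD 0.44, n = 3), with an exact permutation p of 0.1, two-sided, the smallest that 3 arrays against 3 allow. This permutation leaves the pairing by clone out. Flipping the signs of the 3 clone differences gave p = 0.25, and the permutation without any 1 clone gave p = 0.333. Each is the smallest that its test allows.

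**Figure D1:**
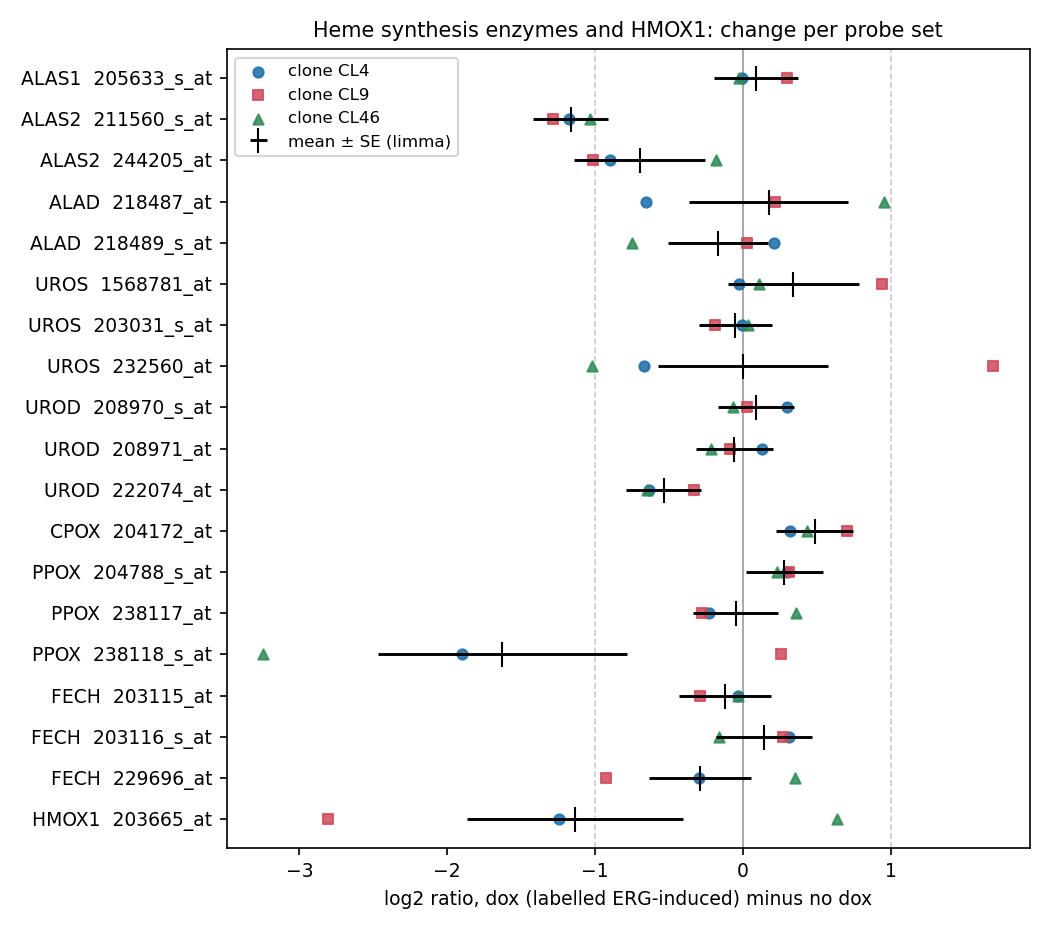
Change of each of the 19 member probe sets on the x axis, as the log2 ratio dox minus no dox; circles, squares and triangles are the clones CL4, CL9 and CL46, black lines the limma mean ± SE, and dashed lines mark a 2-fold change. ALAS2 211560_s_at lies at -1.17 with its clones between -1.29 and -1.03, while 16 of the 19 means lie within 2-fold.

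Of the 19 probe sets, 1 was called lower and 0 higher (11.0% of all were called in either direction), against 8.16% lower and 2.82% higher of all probe sets tested. The share of members called lower, 5.26%, was not above that background. At the level of genes 0 of 9 were called, where 6.32% of all genes were called lower and 3.12% higher (9.44% in all), and 1 member gene, ALAS2, had an unadjusted p under 0.05 in limma against 12.9% of all genes. No member probe set passed an adjusted p of 0.05, and neither did any of the 54613 probe sets, of which 7180 (13.1%) had an unadjusted p under 0.05 (the adjusted share is 0.0%). Over all genes 617 were called higher and 1250 lower, which became 749 and 999 after centring the arrays on their medians and 848 and 923 after quantile normalization. The median difference of the member genes was -0.09, beside -0.03 over all genes. The median SE of the member genes was 0.29, against 0.45 over all genes, and HMOX1 (0.71) was the member above the latter. For 5 member genes, ALAS1, ALAD, UROS, UROD and FECH, the unadjusted 95% interval of the gene lay wholly within 2-fold of no change. Except for ALAS1, these are intervals of means over several probe sets, and intervals of single probe sets reached past 2-fold. Their lower ends were -1.16 for ALAD 218487_at, -1.01 for ALAD 218489_s_at, -1.43 for UROS 232560_at, -1.17 for UROD 222074_at and -1.15 for FECH 229696_at. The upper ends of ALAD 218487_at, UROS 232560_at and UROS 1568781_at also lay past 2-fold.

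None of the cytosolic enzymes of the middle of the chain was called. ALAD, which joins aminolevulinic acid pairs into porphobilinogen, differed by 0.00 (SE 0.35, 95% interval -0.86 to 0.87). Its probe set 218489_s_at gave 0.21, 0.03 and -0.75 and its probe set 218487_at gave -0.66, 0.22 and 0.96. The 2 probe sets thus moved in opposite directions in CL4 and in CL46.
UROS, which closes the tetrapyrrole ring, differed by 0.10 (SE 0.33, 95% interval -0.70 to 0.90). Its probe set 203031_s_at had ratios between -0.06 and 0.01 in the dox arrays and between -0.09 and 0.18 in the no dox arrays, with differences of -0.00, -0.19 and 0.04. Its probe set 1568781_at gave -0.03, 0.94 and 0.11, a mean of 0.34 (SE 0.44), and ran opposite to 203031_s_at over the 6 arrays (r = -0.98). Probe set 232560_at of the same gene gave -0.67, 1.69 and -1.02, a mean of 0.00 (SE 0.58) that stands for no clone, and without CL9 UROS differed by -0.26.
UROD, which removes carboxyl groups from the ring, differed by -0.17 (SE 0.23, 95% interval -0.74 to 0.40). Its probe sets 208970_s_at (0.09) and 208971_at (-0.06) lay near 0, with r = 0.80 between them over the 6 arrays. The third, 222074_at, had -0.49, -0.16 and -0.36 in the dox arrays and 0.15, 0.17 and 0.29 in the no dox arrays. These groups did not overlap, and the difference of -0.54 (SE 0.25, limma adjusted p = 0.454) was not called.

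The mitochondrial enzymes at the end of the chain gave 1 gene with all dox arrays above and no call. CPOX, which oxidises coproporphyrinogen, had log2 ratios of 0.10, 0.26 and 0.32 in the dox arrays and -0.22, -0.45 and -0.11 in the no dox arrays. Every value of the first group lay above every value of the second, and the clones differed by 0.32, 0.71 and 0.43. The difference was 0.49 (SE 0.24, limma adjusted p = 0.461, 95% interval -0.10 to 1.07), short of both thresholds. It was 0.59 with centring of each array (limma unadjusted p = 0.0362, adjusted p = 0.338). After quantile normalization it was 0.65 (limma unadjusted p = 0.0220, adjusted p = 0.281). In the fit over genes both scalings, and the fit without moderation of the variances (unadjusted p = 0.0156), passed the p threshold but not the fold threshold. The limma fit over probe sets, on the same CPOX values, gave an unadjusted p of 0.0523 with centring, which did not pass. After quantile normalization it gave 0.0331.
PPOX, which oxidises protoporphyrinogen, rested on probe sets that disagreed. Probe set 204788_s_at gave 0.30, 0.31 and 0.23 in the 3 clones, a mean of 0.28 (SE 0.26), and 238117_at gave -0.05 (SE 0.29). In contrast, 238118_s_at had -1.06, 0.12 and -3.01 in the dox arrays and 0.84, -0.14 and 0.23 in the no dox arrays. Only the arrays of CL4 and CL46 were low, and the difference of -1.63 (SE 0.84, limma adjusted p = 0.492) was called only without CL9 (-2.57). The mean of the gene, -0.47 (SE 0.30), became 0.04 when the median of its probe sets was taken.
FECH, the ferrochelatase, differed by -0.09 (SE 0.25, 95% interval -0.71 to 0.53). Its probe sets gave -0.12, 0.14 and -0.29, and the sign of the gene turned with the array scaling, to 0.02 with centring of each array and 0.07 after quantile normalization.
Groups without overlap were found in 3 of the 19 probe sets (15.8%), those of ALAS2 and UROD lower and that of CPOX higher, against 22.3% of all probe sets (15.1% lower and 7.14% higher). Within the 6 genes with several probe sets, 4 of 14 pairs of probe sets had r above 0.5 over the 6 arrays and 6 had r below 0.

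**Figure D2:**
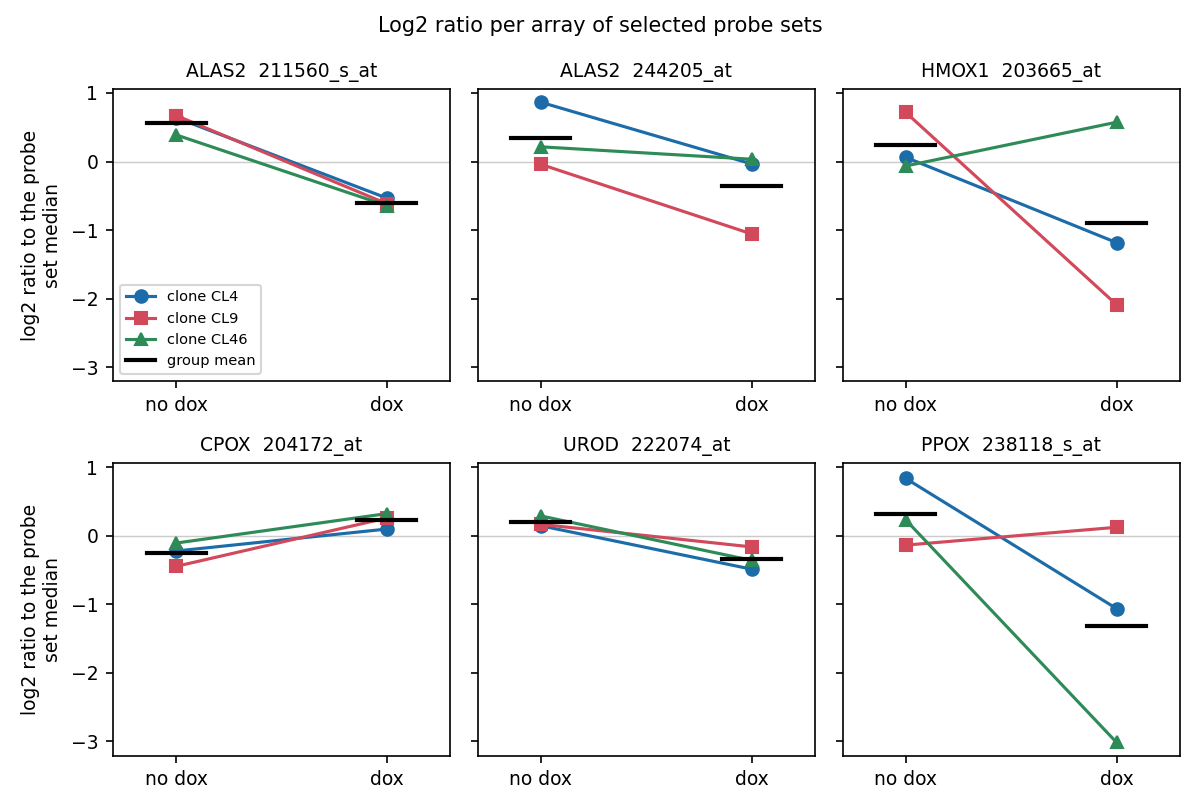
Log2 ratio to the probe set's median (y axis) of 6 probe sets in the no dox and dox arrays; lines join the arrays of a clone, with symbols for CL4, CL9 and CL46, and black bars are group means. ALAS2 211560_s_at falls in parallel in all 3 clones, CPOX stands higher in each and UROD 222074_at lower in each, while HMOX1 and PPOX 238118_s_at go both ways.

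HMOX1, which degrades heme to biliverdin, iron and carbon monoxide, differed between the clones more than any other member gene at the level of genes. It rests on 1 probe set, whose clone differences had a range of 3.44. PPOX 238118_s_at, which is averaged with other probe sets in its gene, had a range of 3.51. The log2 ratios of HMOX1 were -1.18, -2.09 and 0.57 in the dox arrays and 0.06, 0.72 and -0.06 in the no dox arrays. It was thus low in CL4 and CL9 and highest of the dox arrays in CL46, with differences of -1.24, -2.80 and 0.64. The mean of -1.14 (SE 0.71, limma adjusted p = 0.568, 95% interval -2.89 to 0.61) was not called. Without CL46 it was -2.02 and passed the study's thresholds (unadjusted p = 0.0194, adjusted p = 0.538), and without CL9 it was -0.30. The range of HMOX1 over the clones was 0.78 in the no dox arrays and 2.66 in the dox arrays.

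HMOX1 belongs to the genes that the stress factor NRF2 activates and that BACH1, a heme-binding repressor, holds down. Of 11 other NRF2 target genes listed, 9 were measured, of which 3 fell and 0 rose, with a median difference of -0.62, beside 6.32% of all genes called lower and a median of -0.03. SLC7A11, the cystine importer, fell 4.58-fold (log2 difference -2.20, SE 0.60, unadjusted p = 0.0110, limma adjusted p = 0.261). GCLM and GCLC, the subunits of the enzyme that starts glutathione synthesis, fell by 1.44 and 1.18 on the log2 scale. By clone, SLC7A11 gave -1.90, -1.72 and -2.96, GCLM -0.75, -2.03 and -1.54, and GCLC -0.10, -2.07 and -1.37. In CL46, where HMOX1 was higher, these 3 genes were thus lower, as in CL9. Without CL46 the calls of SLC7A11 (-1.81), GCLM (-1.39) and GCLC (-1.08) were lost, and that of GCLC was also lost without CL9 (-0.73), with the clone as a block (unadjusted p = 0.0787), without moderation of the variances (unadjusted p = 0.0519), with a pseudocount (-0.96) and with the median of its probe sets (-0.73).
Within these genes the probe sets disagreed. GCLM 203925_at gave -0.09 beside -2.18 and -2.05 for its other two, SLC7A11 207528_s_at gave -0.32 beside -2.67 and -3.59, and none of the 3 probe sets of GCLC was called (-2.29, -0.85 and -0.39). The quinone reductase NQO1 differed by -0.62 (SE 0.26, limma adjusted p = 0.406), with all dox arrays below all no dox arrays. The thioredoxin reductase TXNRD1 differed by -0.70, the malic enzyme ME1 by 0.52 and the ferritin light chain FTL by 0.16, and none was called. FTL had all dox arrays above all no dox arrays. Of the 9 genes measured, 4 had groups without overlap lower and 1 higher, against 13.6% and 7.98% of all genes. TXNRD1 was -0.28 without CL46, -1.18 without CL9 and -0.43 without its probe set of median below 1. ME1 was 0.13 with the median of its probe sets, which gave 0.02, 0.09 and 1.45, and FTL was 0.26 with centring of each array and 0.30 after quantile normalization. NFE2L2, which encodes NRF2, gave -0.33, 1.52 and -2.58 in the clones, a difference of -0.46 (SE 0.75, limma adjusted p = 0.849) that was not called. Its range over the clones was 2.54 in the no dox arrays and 1.56 in the dox arrays.

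**Figure D3:**
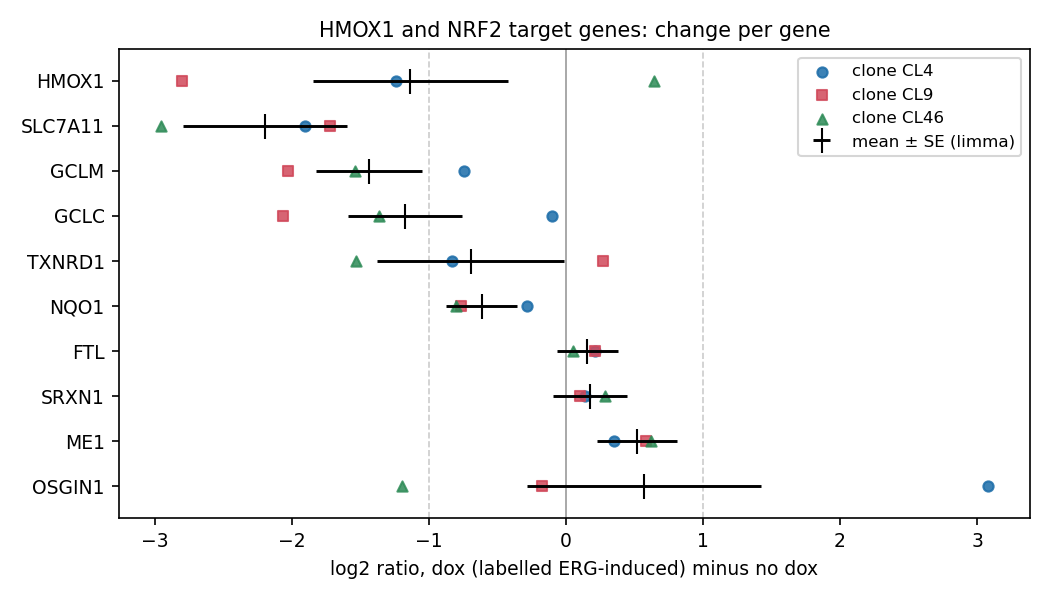
Change of HMOX1 (top) and of 9 other NRF2 target genes on the x axis, as the log2 ratio dox minus no dox, with the clones CL4, CL9 and CL46 as symbols, the limma mean ± SE as black lines and a 2-fold change as dashed lines. SLC7A11, GCLM and GCLC lie left of 0 in all 3 clones, while HMOX1 lies right of 0 in CL46.

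Of 42 other genes of heme metabolism listed (transporters, enzyme partners, cytochrome heme enzymes, iron-sulfur cluster genes and regulators), 36 were measured and 0 were called in limma, against 9.44% of all genes. An unadjusted p under 0.05 was found for 4 of the 36, against 12.9% of all genes, a share near that background. Their median difference was 0.05, beside -0.03 over all genes, and their groups did not overlap in 10 genes (27.8%), 5 higher and 5 lower, against 21.6% of all genes (7.98% higher and 13.6% lower). FLVCR1, which exports heme from the cell, had -0.24, -1.03 and -0.84 in the dox arrays and 0.30, 0.28 and 0.29 in the no dox arrays. The no dox arrays were nearly equal and all dox arrays lay below them, a difference of -0.99 (SE 0.29, limma adjusted p = 0.285) that was just short of the fold threshold. It was called lower without CL4 (-1.22) and with a lower fold threshold or none, and of its probe sets 228191_at (-1.08) was called and 222906_at (-0.90) was not.
SLC25A38, which brings glycine into mitochondria for the first step, had 0.11, 0.92 and 0.93 in the dox arrays and -0.46, -0.19 and -0.12 in the no dox arrays. Its difference of 0.91 (SE 0.32, limma adjusted p = 0.339) was called higher without CL4 (1.08), with centring of each array (1.02) and after quantile normalization (1.11). SLC25A38 was also called higher with a lower fold threshold or none.
BACH1 had -0.26, -0.45 and -0.68 against 1.15, -0.12 and 0.46, again without overlap. Its difference of -0.96 (SE 0.39, adjusted p = 0.386) was called lower without CL9 (-1.27) and with the median of its probe sets (-1.40), of which 204194_at (-1.33) and 234315_at (-1.61) were called and 234938_at gave 0.06 with 2.46 in CL9. BACH1 was also called lower with a lower fold threshold or none.
KLF1, an erythroid transcription factor, had 0.15, 0.26 and 0.28 against -0.76, -0.17 and -0.49, a difference of 0.71 (SE 0.26, adjusted p = 0.35). GATA1, which drives erythroid genes including ALAS2, differed by 0.31 (SE 0.26, adjusted p = 0.668), with -0.12 in CL9. Neither regulator was called at a fold of 2, and KLF1 was called with a lower fold threshold or none.

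Of the groups of this list, the 10 genes of mitochondrial transport and enzyme partners had a median difference of 0.03 and ran from -0.71 (CLPX, a chaperone that helps activate the first enzyme) to 0.91 (SLC25A38). The 5 genes of heme and porphyrin transport had a median of 0.40 and ran from -0.99 to 1.04. The 6 iron-sulfur cluster genes had a median of -0.02, the 3 heme breakdown genes 0.41, the 3 cytochrome heme genes -0.47 and the 8 regulators -0.14. The 1 iron response protein measured gave 0.27. ABCB10, a mitochondrial transporter linked to heme synthesis, differed by -0.53 and TMEM14C, which moves protoporphyrinogen inward, by 0.51. Both had groups without overlap, and neither was called. CLPX, ABCB10, TMEM14C, GATA1 and NFE2L2 are named after their values were seen.

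**Figure D4:**
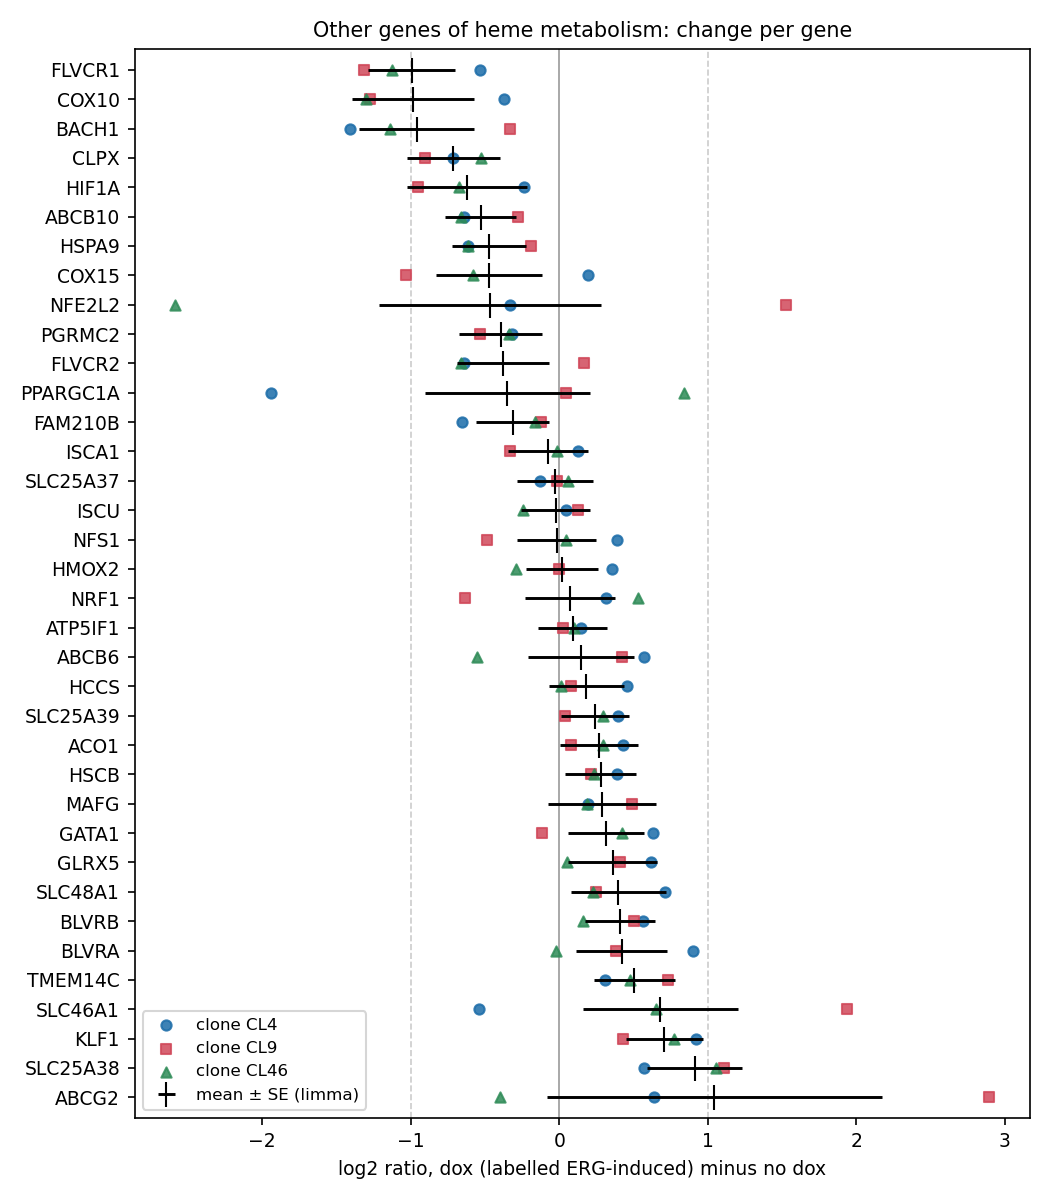
Change of 36 other genes of heme metabolism on the x axis, as the log2 ratio dox minus no dox, sorted by their mean, with the clones CL4, CL9 and CL46 as symbols, the limma mean ± SE as black lines and a 2-fold change as dashed lines. The means run from -0.99 (FLVCR1) to 1.04 (ABCG2), and all 3 clones lie below 0 for 9 genes and above 0 for 12.

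Beside these values, 9 of 15 erythroid markers were measured. TFRC, the transferrin receptor that brings in iron, fell (-1.67, with -1.53, -2.13 and -1.33 by clone), the other 8, which include KLF1 and GATA1 from the list above, were not called, and the median was 0.25. Of the globin genes measured, HBE1 gave 0.26 and HBZ -0.58. Of 9 megakaryocyte markers measured 3 rose, SELP, GP1BA and ITGB3, and the median was 1.23. The other 6 were not called, and each of them was lower in at least 1 clone. TUBB1 was lower on average (-0.31), and PPBP was lower in CL9 (-2.53). The paper had already reported SELP, GP1BA, ITGB3 and ITGA2B as over-expressed in these clones, so the values of this list are not independent of that report. The mean log2 ratio of the megakaryocyte list ran from -0.37 to 1.21 in the dox arrays and from -1.23 to -0.69 in the no dox arrays, without overlap, while that of the erythroid list ran from -0.24 to 0.08 and from -0.18 to 0.14. Of 8 monocyte and granulocyte markers 1 rose and 0 fell, and 1 of 4 lymphocyte and 1 of 6 fibroblast markers fell. Over all genes 3.12% were called higher and 6.32% lower, with a median of -0.03. Whether a change in cell state bears on ALAS2 was not tested.

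The genes whose 6 array values were most like those of ALAS2 were STRN (Pearson r = 0.993), XRCC2 (0.992) and GTF2B (0.991). For FECH they were C2orf76 (0.996), RBMS1 and DNAAF10, and for HMOX1 they were CIB1 (0.996), LINC01600 and ARFGAP2. With only 6 arrays such values are common, as 161 genes had r above 0.95 with ALAS2, 74 with FECH and 40 with HMOX1. Among the members, ALAS2 had r = 0.69 with HMOX1, 0.64 with FECH, -0.55 with ALAS1 and -0.81 with CPOX, all as descriptions over arrays that share their clones and scaling.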

How the data were processed

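RNA of 3 K562 pTRE ERG clones with and without doxycycline was hybridized to Affymetrix U133 Plus arrays, and the authors analysed them with GeneSpring. The deposited values are linear ratios, each probe set divided by its median over the 6 arrays (median 1 within 1e-05 in 50737 of 54675 probe sets, below 1 in 3938, and 1 in all 19 members). For background correction and array scaling, the method was not given in the sources used here. Here 62 control probe sets were left out, ratios were taken to log2 with no floor, and probe sets with 1 symbol (41091, against 1801 with several and 11721 with none), with names updated by gene ID to RefSeq of GRCh38.p14, were averaged for 19775 genes. Every value column was mapped to a sample (0 unmapped).

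The test was that of limma 3.58.1 (R 4.3.3; lmFit, eBayes without an intensity trend, two-sided), fitted and adjusted by Benjamini-Hochberg over all probe sets or all genes. Calls used a fold of 2 and an unadjusted p under 0.05, because the paper names no test. The fit was tested on simulated data. Shared clones pair the arrays; deviations of same-clone arrays from group means correlated at 0.04, 0.05 and 0.03. Clones are called independent, and within a clone nothing replicates an array. Named were all members, and of the partner and NRF2 lists every called gene and up to 4 others with the smallest p. Members and lists were chosen with earlier results of these data known. Alternatives were the clone as a block, 2 scalings, unmoderated variances, a pseudocount of 0.1, leaving out probe sets of median below 1, other thresholds, the median of probe sets, and leaving out each clone.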

Additional observations from a re-analysis of the deposited data

How the results depend on the processing

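With the clone as a block (replicate block), 1 member probe set, 211560_s_at of ALAS2, was called lower, 0 member genes and 0 partner genes were called, and of the NRF2 genes the call of GCLC was lost, as given above. ALAS2 211560_s_at was called in every alternative run, but in some it lay close to the fold threshold. It was -1.01 after quantile normalization and -1.06 both with centring of each array and with the pseudocount. The mean of ALAS2 over its probe sets was -0.83 with centring and -0.75 after quantile normalization. Leaving out each clone in turn gave 1 to 2 member probe sets lower (the second was PPOX 238118_s_at without CL9 and HMOX1 203665_at without CL46), 0 to 1 member genes lower (HMOX1 without CL46), 0 to 1 partner genes higher and 0 to 2 lower. A fold of 1.5, or no fold threshold, each gave 1 member gene lower (ALAS2) and 2 partner genes higher and 2 lower. Partner genes called higher were 1 with each array centred and 1 after quantile normalization, and called lower 1 with the median of probe sets. The median difference over all genes, -0.03, was 0.08 with centring and 0.11 with quantiles. The difference ALAS2 minus ALAS1 kept its sign in every alternative (-1.24 to -0.80 without a clone). Signs turned for genes that were never called: without a clone ALAS1 ran from -0.017 (without CL9) to 0.15, ALAD from -0.060 (without CL9; -0.051 without CL46) to 0.11, UROS from -0.26 (without CL9) to 0.29, and FECH from -0.16 to 0.023 (without CL9). FECH was also 0.015 with centring and 0.069 with quantiles, and PPOX was 0.042 with the median of probe sets; the cause was not tested. The number of arrays limits the precision, and signal over background is unknown.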
